A study of Mus musculus with 4 samples.

Results

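The perilipins and the genes of lipid droplet breakdown were described in 4 mouse sarcomas, 2 from mice given arsenic trioxide (ATO) and 2 from control mice labelled PBS. The 10 genes are Plin1, Plin2, Plin3, Plin4, Plin5, Cidec, Pnpla2, Lipe, Lpl and Cd36, of 56691 genes in the deposited table. They were chosen on their measured levels in ATO against PBS sarcomas, so that contrast is given for them as a description, with no test. Of the 10 genes, 9 were higher in both ATO sarcomas than in either PBS sarcoma. For Plin2 the margin was narrow in ATO 1, whereas Plin1 and Cidec had almost no reads in PBS. That order of CPM was found in 19.7% of the 17188 genes tested, and nothing is read from the count, since it chose the genes. Plin3 was the exception, and its groups overlapped. Among the 9, Plin4 was highest in ATO 1 and the other 8 were highest in ATO 2.

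A lipid droplet is a store of neutral fat, mainly triglyceride, under a single layer of phospholipid. Perilipins coat this surface and control which lipases reach the fat. In fat cells, hormone signals acting through protein kinase A lead to phosphorylation of perilipin 1, which frees the co-activator ABHD5 for adipose triglyceride lipase, and hormone-sensitive lipase acts after it. Lipoprotein lipase works outside the cell, where it releases fatty acids from circulating triglyceride, and CD36 aids their entry.

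RNA-seq was performed on sarcoma tissue from W/+ mice, which the labels give as p53R282W/+ in the human numbering and which are heterozygous for the mouse equivalent of that substitution. Treated mice drank water with 35 mg ATO in 1 L from day 90 until death. In the labels the control sarcomas carry the treatment PBS, whereas the study calls those mice untreated. Every sarcoma shared the p53 genotype, and neither the age of a mouse at collection nor the site or subtype of its sarcoma was given in the sources used here. The mutation was carried in the germline, so the host tissue in a sarcoma carries it too. The tumors arose spontaneously, and no sorting of cells was described. The growth field of the labels speaks of cells in culture that received dexamethasone together with isobutylmethylxanthine and later insulin, agents used to turn cultured precursor cells into fat cells, and the study describes no such step for the sarcomas. Whether it applies to these samples was not tested.

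Total counts lay between 15259695 and 18134000 per sarcoma, and a count of 0 allowed up to 3 counts, or 0.165 to 0.197 CPM, the count scaled to the total of the library. These limits and the intervals of ratios below cover counting error only. ATO 2 stood apart from the other sarcomas. Mitochondrially encoded genes took 14.7% of its counts, against 1.98% to 2.59% in the others, and its 10 highest genes took 17.7%, against 5.43% to 9.67%. Levels are given as FPKM, the deposited count scaled to exon length and total count, which can be compared between genes. Changes are given on CPM scaled with TMM factors, which correct for a few abundant genes and ranged from 0.822 in ATO 2 to 1.11 in PBS 2.

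Markers of adipocytes and skeletal muscle moved with the groups, whereas in CPM 5 of 5 endothelial and 4 of 5 macrophage markers overlapped. The summed FPKM of 5 adipocyte markers was 12.8 in PBS 1, 67.3 in PBS 2, 336 in ATO 1 and 1502 in ATO 2. Of these, Fabp4 made up most of the PBS level, Lep was listed at 0 in both PBS sarcomas and Retn in PBS 1, and Adipoq (adiponectin) was at 0.08 FPKM in both. All 5 adipocyte markers were above both PBS sarcomas in both ATO sarcomas. For 8 skeletal muscle markers the sum was 7.02, 126, 14603 and 1059 FPKM in the same order, and all 8 were above PBS in both ATO sarcomas. Of all genes tested, 19.7% in CPM and 12.8% in FPKM were likewise above PBS in both. The adipocyte markers Adipoq, Cfd, Retn and Lep and the muscle markers Ckm and Myl1 passed the filter on low counts only through the ATO sarcomas. Nothing is therefore read from these counts of markers. The brown adipocyte marker Ucp1 stood at 0.07, 0.10 and 0.03 FPKM in PBS 1, PBS 2 and ATO 1 and at 1485 in ATO 2. Its groups overlapped, and another brown adipocyte marker, Dio2, was highest in PBS 1, at 32.7 FPKM. The part of these cells in the levels below was not tested. In such bulk tissue, fewer cells of a type and less RNA per cell cannot be told apart.

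The stretches before the start of 5 genes are shown because these genes stand for the patterns described below. Plin1 and Cidec were almost absent from the PBS sarcomas, Plin4 and Plin5 are neighbours that differed between the ATO sarcomas, and Plin2 was already high in PBS. The sequences are from RefSeq on GRCm38.p6, minus strand, written 5′ to 3′ in the direction of the gene, and cover chr7:79732874-79733026 for Plin1, chr6:113435761-113436010 for Cidec, chr17:56109783-56110032 for Plin4, chr17:56117567-56117798 for Plin5 and chr4:86670060-86670309 for Plin2. Capitals mark matches, searched on both strands, to the nuclear receptor half-site AGGTCA, to the core of the TATA box, spelled TATAA, and to the C/EBP site TTGCNNAA. The capitals in Plin2 read the half-site on the opposite strand.
Plin1: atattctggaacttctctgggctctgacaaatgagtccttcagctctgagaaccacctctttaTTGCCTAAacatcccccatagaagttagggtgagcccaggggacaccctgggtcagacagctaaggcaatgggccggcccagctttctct
Cidec: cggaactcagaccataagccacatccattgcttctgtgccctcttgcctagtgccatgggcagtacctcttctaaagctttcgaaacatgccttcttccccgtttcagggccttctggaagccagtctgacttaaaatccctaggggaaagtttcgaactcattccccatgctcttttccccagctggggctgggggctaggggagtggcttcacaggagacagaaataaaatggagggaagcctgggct
Plin4: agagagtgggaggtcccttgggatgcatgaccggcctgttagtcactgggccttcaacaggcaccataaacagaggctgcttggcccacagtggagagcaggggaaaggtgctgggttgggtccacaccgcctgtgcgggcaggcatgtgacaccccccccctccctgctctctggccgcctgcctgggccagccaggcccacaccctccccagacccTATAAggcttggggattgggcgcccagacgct
Plin5: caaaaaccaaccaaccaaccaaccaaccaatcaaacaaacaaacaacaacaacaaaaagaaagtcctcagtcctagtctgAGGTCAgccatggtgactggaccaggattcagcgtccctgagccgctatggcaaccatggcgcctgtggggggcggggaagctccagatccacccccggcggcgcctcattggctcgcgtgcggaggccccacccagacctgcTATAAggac
Plin2: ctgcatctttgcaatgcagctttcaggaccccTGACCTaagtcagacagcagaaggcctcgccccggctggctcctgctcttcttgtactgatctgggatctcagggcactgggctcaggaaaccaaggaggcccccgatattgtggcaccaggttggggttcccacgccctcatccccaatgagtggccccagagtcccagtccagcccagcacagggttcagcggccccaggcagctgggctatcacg

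Positions are counted back from the RefSeq start, over the 250 bases before it. TATAA began at -32 in Plin4 and at -27 in Plin5, and 22.8% of 32851 RefSeq starts hold it in these 250 bases. AGGTCA was found at -218 in Plin2, -170 in Plin5 and -228 in Cd36, against 14.0% of all starts. TTGCNNAA was at -187 and -58 in Plin1 and at -198 in the second start of Cidec, against 9.56% of all. Only the first of the Plin1 matches falls in the stretch printed. Lipe held CACGTG, an E-box, at -155, which 6.02% of all starts hold. CCAAT was found in Plin2, Plin3, Plin4, Plin5 and Cd36, against 33.9% of all starts, and GGGCGG in Plin3, Plin5, Pnpla2, Lipe and Cd36, against 32.7%. A pair of AGGTCA half-sites 1 base apart was also searched with up to 3 mismatches, which overlaps the single half-site, and was found in Plin2, Plin3, Plin5, Cidec, Lipe and Cd36, against 21.3% of all starts. RefSeq starts were matched for 9 of the 10 genes, with 12 starts in all. For Plin3, Lipe, Cd36 and the second starts of Plin5 and Cidec, the 250 bases lie wholly inside the span of the gene given below. These matches describe letters and not sites of binding.

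Perilipin 1, the main droplet coat of fat cells, showed the widest range. Plin1 (ENSMUSG00000030546, chr7:79720218-79732903, GRCm38) had 0 counts in PBS 1, 1 count in PBS 2, 445 in ATO 1 and 7630 in ATO 2, or 0, 0.01, 5.28 and 108 FPKM. The groups did not overlap, and the ATO sarcomas themselves lay far apart, with ATO 2 above ATO 1 by 25.0-fold (95% interval 22.7 to 27.6). With 1 count over the PBS group, the ratio of the groups was 10230, with a counting interval of 1835 to 404000. That interval pools the reads of both ATO sarcomas, most of them from ATO 2, and leaves out the spread between sarcomas. The fitted log2 fold change of 13.2 was 9.58 without ATO 2, so the size of the difference is poorly fixed. By FPKM it ranked 373 among all genes in ATO 2 and 7881 in ATO 1.

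Plin2 (ENSMUSG00000028494, chr4:86648386-86670060) encodes the coat protein found on droplets of most cells. It was the most abundant perilipin in both PBS sarcomas, at 50.3 and 58.4 FPKM in PBS 1 and PBS 2, and stood at 61.0 in ATO 1 and 298 in ATO 2. The first 3 sarcomas lay close together and ATO 2 alone was high. The fitted log2 fold change of 2.10 (SE 0.96, n = 2 per group) was 0.30 without ATO 2.

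Perilipin 3 is a coat protein that is also found free in the cytosol. Plin3 (ENSMUSG00000024197, chr17:56277476-56292873) stood at 24.5, 17.5, 11.5 and 22.7 FPKM in PBS 1, PBS 2, ATO 1 and ATO 2. The groups overlapped, with ATO 1 lowest and PBS 1 highest in FPKM, while ATO 2 was highest in TMM-scaled CPM. Its mean was 72.6 ± 17.7 CPM in PBS and 74.3 ± 43.7 in ATO (SD, n = 2), a log2 fold change of 0.03 (SE 0.56) whose sign turned with library-size scaling (-0.29) and without ATO 2 (-0.74).

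Plin4 (ENSMUSG00000002831, chr17:56100591-56109803), a perilipin known from fat and muscle cells, followed another order. It had 44 and 64 counts in PBS 1 and PBS 2, 11520 in ATO 1 and 2728 in ATO 2, or 0.40, 0.56, 100.04 and 28.2 FPKM. ATO 1 exceeded ATO 2 by 2.90-fold (95% interval 2.78 to 3.02), and Plin4 was the only 1 of the 10 genes with its highest level there. The log2 fold change was 7.26 (SE 0.86), with means of 2.77 ± 0.644 CPM in PBS and 426 ± 293 in ATO (SD, n = 2). Without ATO 2 it was 7.84 and without ATO 1 it was 6.28.

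Perilipin 5 is the coat protein of tissues that burn fat, such as heart, muscle and brown fat. Plin5 (ENSMUSG00000011305, chr17:56111601-56117596) stood at 0.16, 0.69, 6.92 and 37.9 FPKM in PBS 1, PBS 2, ATO 1 and ATO 2. The PBS counts were 6 and 26, so PBS 2 was 4.15-fold above PBS 1 with an interval of 1.67 to 12.3. ATO 2 was above ATO 1 by 6.73-fold (5.88 to 7.72), and the groups did not overlap. The log2 fold change was 6.08 (SE 1.37), with means of 0.813 ± 0.703 CPM in PBS and 55.6 ± 58.3 in ATO (SD, n = 2). With 1 sarcoma left out it lay between 4.15 (without ATO 2) and 7.42 (without PBS 2).

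The make-up of the family thus differed between sarcomas, as the stacked shares of the 5 perilipins show. Plin2 and Plin3 together held 99.3% and 98.4% of the summed perilipin FPKM in PBS 1 and PBS 2, 39.3% in ATO 1 and 64.9% in ATO 2. In ATO 1, Plin4 alone held 54.2%. In ATO 2, Plin2 held 60.3% and Plin1 21.8%, while Plin4 held 5.70%. The sum itself was 75.3, 77.2, 185 and 494 FPKM in PBS 1, PBS 2, ATO 1 and ATO 2.

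**Figure D1:**
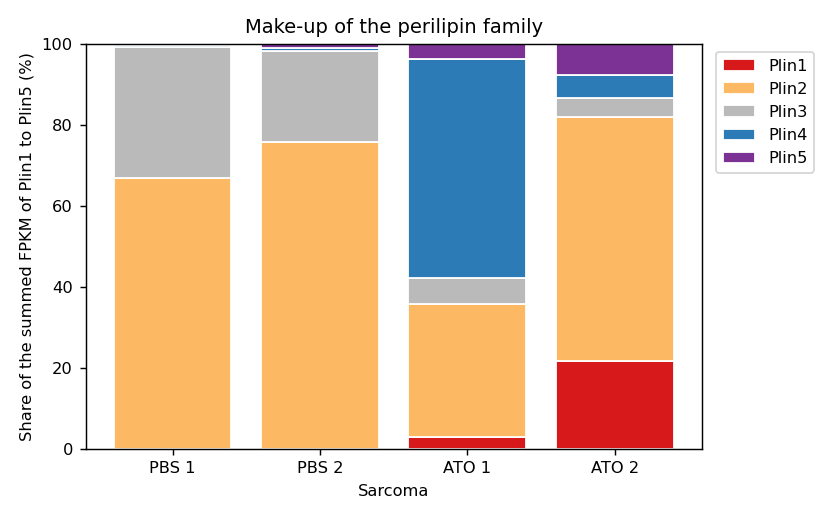
Share of the summed FPKM of Plin1 to Plin5 held by each gene (y axis, percent) in each sarcoma (x axis). Plin2 and Plin3 fill 99.3% and 98.4% of the PBS bars, Plin4 is the largest part in ATO 1 at 54.2%, and Plin2 is the largest in ATO 2 at 60.3%.

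Cidec, which drives the fusion and growth of droplets in white fat cells, resembled Plin1. It (ENSMUSG00000030278, chr6:113424634-113435760) had 1 count in each PBS sarcoma, 792 in ATO 1 and 7016 in ATO 2, or 0.03, 0.03, 23.5 and 248 FPKM. The groups did not overlap. The ratio of the groups was 4944, with an interval of 1368 to 40830, and ATO 2 was above ATO 1 by 12.9-fold (12.0 to 13.9). The interval of the groups pools both ATO sarcomas and leaves out the spread between them. The fitted log2 fold change of 12.3 was 9.56 without ATO 2.

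Adipose triglyceride lipase, the enzyme that opens triglyceride breakdown, was the most abundant of the 10 transcripts in both ATO sarcomas. Pnpla2 (ENSMUSG00000025509, chr7:141455198-141460743) stood at 14.5, 36.4, 150 and 485 FPKM in PBS 1, PBS 2, ATO 1 and ATO 2. Its rank among all genes by FPKM moved from 3715 and 1402 in PBS 1 and PBS 2 to 194 and 57 in ATO 1 and ATO 2. The means were 69.9 ± 41.9 CPM in PBS and 1121 ± 948 in ATO (SD, n = 2), a log2 fold change of 4.0 (SE 1.02), which was 2.7 without ATO 2 and 4.79 without PBS 2.

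Hormone-sensitive lipase, which cleaves diglyceride, was lower throughout. Lipe (ENSMUSG00000003123, chr7:25379527-25398710) stood at 2.37, 8.37, 11.4 and 103 FPKM in the same order. The gap between PBS 2 and ATO 1 was small beside that between the ATO sarcomas, where ATO 2 was 11.1-fold above ATO 1 (10.4 to 11.7). The log2 fold change of 3.81 (SE 1.39) was 1.23 without ATO 2 and 4.97 without PBS 2. An antisense transcript, 4732471J01Rik, spans the whole of Lipe and had at most 82 counts, and since the sources used here do not say whether counting used strand, reads of the pair cannot be told apart.

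Pnpla2 exceeded Lipe in every sarcoma, but not by a constant factor. Their FPKM ratio was 6.13 in PBS 1, 4.35 in PBS 2, 13.1 in ATO 1 and 4.72 in ATO 2, so ATO 1 was the sarcoma with least Lipe for its Pnpla2. Against Abhd5, the co-activator of the lipase, Pnpla2 stood at 2.70, 6.76, 23.3 and 42.9. Against G0s2, its inhibitor, the ratio was 8.85, 5.58, 16.1 and 1.9, with ATO 2 lowest.

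Lpl and Cd36 stand for the supply of fatty acids from outside the cell. Lpl (ENSMUSG00000015568, chr8:68880491-68907448), lipoprotein lipase, stood at 11.7, 5.44, 38.8 and 186 FPKM in PBS 1, PBS 2, ATO 1 and ATO 2. PBS 1 was 2.19-fold above PBS 2 (2.03 to 2.36), the opposite order to Pnpla2 and Lipe, where PBS 2 was above PBS 1 by 2.47-fold (2.27 to 2.69) and 3.48-fold (3.01 to 4.02). The log2 fold change of Lpl was 4.08 (SE 1.15), and it was 2.30 without ATO 2 and 4.84 without ATO 1.

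Cd36 (ENSMUSG00000002944, chr5:17781690-17888801), a fatty acid receptor of fat, muscle, endothelial cells and macrophages, stood at 8.39, 6.23, 135 and 376 FPKM. The PBS sarcomas were close and both ATO sarcomas far above them. Its means were 24.0 ± 5.24 CPM in PBS and 1067 ± 828 in ATO (SD, n = 2), a log2 fold change of 5.48 (SE 0.92) that was 4.33 without ATO 2 and 6.09 without ATO 1. ATO 2 was above ATO 1 by 3.43-fold (3.35 to 3.52). The summed FPKM of 5 macrophage markers was 1828, 839, 882 and 5485 in PBS 1, PBS 2, ATO 1 and ATO 2, so the sum overlapped between the groups. Lyz2 made up most of that sum in every sarcoma. The ratio of ATO 2 to ATO 1 ran from 0.58 for Mrc1 and 0.99 for Csf1r to 10.6 for Lyz2. The part of macrophages in the level of Cd36 was not tested.

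**Figure D2:**
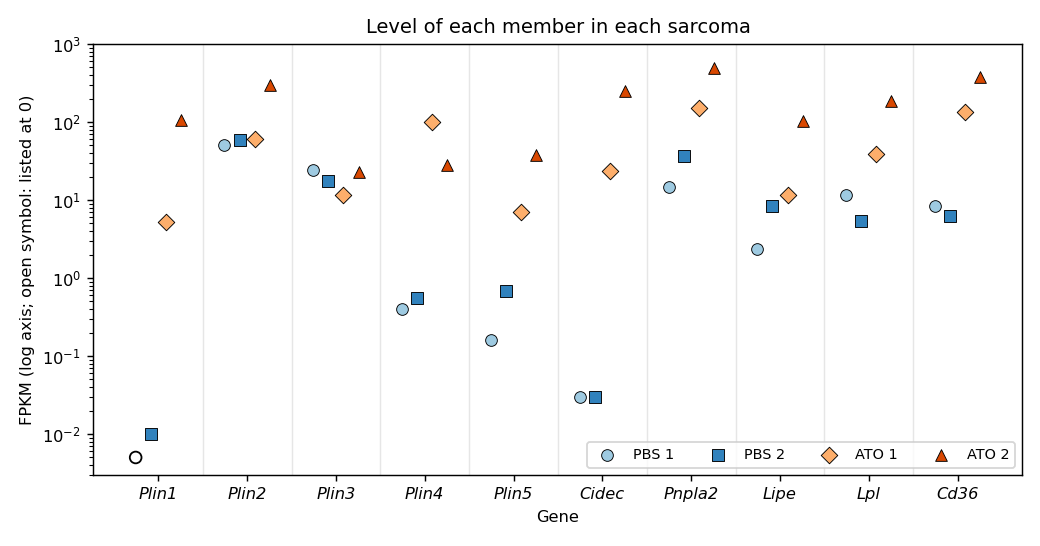
FPKM (y axis, log scale) of the 10 genes (x axis) in the 4 sarcomas, 1 symbol per sarcoma, with an open symbol for Plin1 in PBS 1, which is listed at 0. ATO 2 is highest in each gene but Plin3 and Plin4, and the groups overlap for Plin3 alone.

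Together the 10 genes took 0.0483% and 0.0515% of all counts in PBS 1 and PBS 2, 0.239% in ATO 1 and 0.772% in ATO 2. Both ATO sarcomas exceeded both PBS sarcomas in CPM for 9 of the 10, against 19.7% of all genes tested, while 20.2% had the reverse order. In FPKM, which lacks the TMM factors, 9 of the 10 also had that order, against 12.8% of all genes, and 29.6% had the reverse. Their median log2 fold change was 4.78, against -0.016 over all genes tested, and it was 3.42 without ATO 2 and 5.46 without ATO 1. The 10 genes were chosen on this contrast, so nothing is read from these comparisons with all genes. All 10 passed the filter on low counts, but Plin1, Plin5 and Cidec did so only through the ATO sarcomas, and 7 would have passed on PBS alone. In the edgeR quasi-likelihood fit, 0% of all genes (0 of 17188) had a Benjamini-Hochberg adjusted p under 0.05, while 1463 had an unadjusted p under 0.05, and DESeq2 called 754, or 4.13% of the 18277 genes with an adjusted p. With no filter on low counts, edgeR called 541, or 1.75% of 30859.

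The ATO sarcomas differed from each other beyond counting error in all 10 genes. From the highest, the ratio of ATO 2 to ATO 1 in TMM-scaled CPM ran through 25.0 for Plin1, 12.9 for Cidec, 11.1 for Lipe, 6.73 for Plin5, 5.99 for Plin2, 5.89 for Lpl, 3.97 for Pnpla2, 3.43 for Cd36 and 2.42 for Plin3 to 0.345 for Plin4. The intervals of Plin5, Plin2 and Lpl overlap along this order, and those of the other neighbours do not. Over 5 adipocyte markers the same ratio had a median of 4.62 and a range of 2.69 to 6.42. Over 8 skeletal muscle markers it was 0.0883, with a range of 0.0367 to 0.135, and Plin4 lay between those lists.

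**Figure D3:**
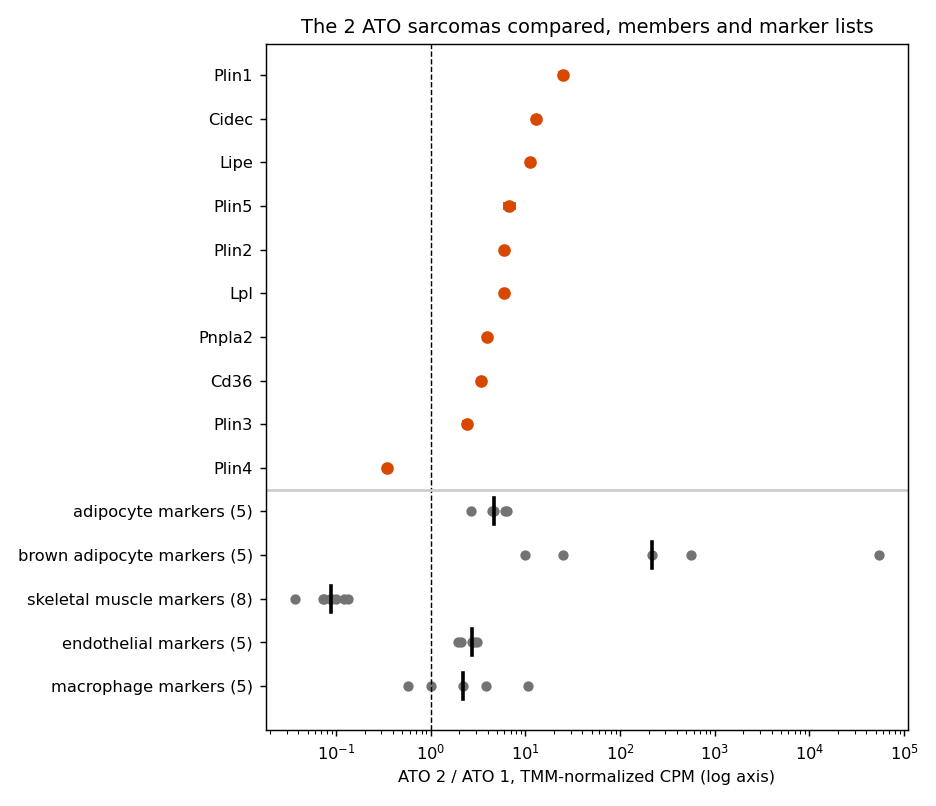
Ratio of ATO 2 to ATO 1 in TMM-normalized CPM (x axis, log scale) for the 10 genes (orange, bars are 95% counting intervals, most within the symbol) and for the genes of 5 marker lists (grey, with the median as a black bar). The dashed line marks equal levels, with Plin4 left of it at 0.345 and Plin1 farthest right of the 10 genes at 25.0.

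Set against Adipoq within each ATO sarcoma, the levels of Lpl, Plin2 and Plin5 were close in both and those of Plin4 and Plin1 were farthest apart. Lpl stood at 0.997 and 0.976 of the Adipoq FPKM in ATO 1 and ATO 2, Plin2 at 1.57 and 1.56, and Plin5 at 0.178 and 0.199. Plin1 stood at 0.136 and 0.564 of Adipoq, Cidec at 0.605 and 1.30, and Lipe at 0.294 and 0.540. Plin4 had the other order, at 2.57 and 0.148, as did Plin3, at 0.296 and 0.119, Pnpla2, at 3.86 and 2.55, and Cd36, at 3.46 and 1.98. These ratios carry the error of Adipoq, with 974 counts in ATO 1 and 4017 in ATO 2.

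Of 53 further genes of the pathway in 4 lists, 48 were tested and 0 passed the adjusted threshold in edgeR. In that fit 17 had an unadjusted p under 0.05 (15 higher in ATO and 2 lower), or 35.4%, against 8.51% of all genes tested. Of those 15, 7 passed the filter on low counts only through the ATO sarcomas, as did 11 of the 48, so nothing is read from their number. DESeq2 called 12 of the 53 pathway genes, against 4.13% of the 18277 genes with an adjusted p, and nothing is read from that number either. In CPM, both ATO sarcomas were above both PBS sarcomas for 21 and below for 2, where 19.7% and 20.2% of all genes had these orders. In FPKM the counts were 21 and 7, against 12.8% and 29.6%. Of the 21 above in CPM, 9 passed the filter on low counts only through the ATO sarcomas, so nothing is read from these counts either. The median log2 fold change was 1.37. The lists were put together with earlier results of these data known.

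Among the droplet regulators, 7 of 11 tested genes were above PBS in both ATO sarcomas. The share of all genes was 19.7% in CPM and 12.8% in FPKM. In CPM 0 were below, against 20.2% of all genes, and in FPKM Faf2 and Hsd17b11 were below, against 29.6%. Of the 7 above in CPM, 3 passed the filter on low counts only through the ATO sarcomas, so nothing is read from this count. The median log2 fold change was 2.58. Pnpla3, a relative of Pnpla2, had 0 counts in both PBS sarcomas and 2.49 and 177 FPKM in ATO 1 and ATO 2, at least 1791-fold higher over the group. Cidea, a relative of Cidec known from brown fat, likewise had 0 counts in PBS and 1.19 and 547 FPKM in ATO, at least 3936-fold higher. Both were far higher in ATO 2 than in ATO 1, with 70 and 4172 counts of Pnpla3 and 24 and 9299 of Cidea in ATO 1 and ATO 2. The 2 bounds use the summed ATO counts and do not hold for ATO 1 alone. G0s2, the lipase inhibitor, stood at 1.64, 6.52, 9.31 and 256 FPKM in PBS 1, PBS 2, ATO 1 and ATO 2. The lowest fitted values were those of Faf2, at -0.76 (SE 0.54), and Hsd17b11, at -0.18 (SE 0.42), and neither passed the test, with edgeR adjusted p = 0.726 and 0.928.

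In lipolysis signalling, 6 of 14 genes were above PBS in both ATO sarcomas and 1 was below, in CPM and in FPKM. The shares of all genes were 19.7% and 20.2% in CPM and 12.8% and 29.6% in FPKM. Of the 6 above in CPM, 4 passed the filter on low counts only through the ATO sarcomas, so nothing is read from this count. Adrb3, the adrenergic receptor of fat cells that starts lipolysis, stood at 0, 0.02, 0.47 and 30.8 FPKM in PBS 1, PBS 2, ATO 1 and ATO 2. Aqp7, the channel through which fat cells release glycerol, stood at 0, 0.02, 1.35 and 20.2. Each rests on 1 PBS count, and the ratios of the groups were 2048 (367 to 80940) for Adrb3 and 1192 (213 to 47120) for Aqp7. These intervals pool the reads of both ATO sarcomas and leave out the spread between them. Adora1, an adenosine receptor that restrains lipolysis, stood at 0.23, 0.10, 0.56 and 7.68 FPKM. Adra2a, an adrenergic receptor that also restrains it, was the gene below PBS, at 8.61, 7.23, 1.30 and 2.12 FPKM, with -1.9 as its log2 fold change (SE 0.53, adjusted p = 0.570 in edgeR). Npr3, a natriuretic peptide clearance receptor, had a log2 fold change of 0.46 (SE 0.89).

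Of the partners of lipoprotein lipase, 3 of 11 tested genes were above PBS in both ATO sarcomas and 1 was below. The shares of all genes were 19.7% and 20.2% in CPM, and 2 of the 3 passed the filter only through the ATO sarcomas. The median log2 fold change was 0.25. Gpihbp1, which carries the lipase across the capillary wall, stood at 10.4, 94.0, 20.3 and 16.5 FPKM in PBS 1, PBS 2, ATO 1 and ATO 2. PBS 2 alone was high, as it was in the summed FPKM of 5 endothelial markers, at 114, 935, 81.6 and 165. Apoc1, an apolipoprotein that inhibits the lipase, stood at 0.69, 0.90, 4.15 and 137 FPKM. Angptl8, a secreted regulator of the lipase, stood at 1.52, 2.19, 0.38 and 20.7 FPKM and its groups overlapped. Lmf2 was below PBS in both ATO sarcomas, at 33.3, 31.2, 13.9 and 11.7 FPKM (log2 fold change -1.07, SE 0.35, edgeR adjusted p = 0.570).

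Among genes of fatty acid uptake and binding, 5 of 12 were above PBS in both ATO sarcomas. The share of all genes was 19.7% in CPM and 12.8% in FPKM. In CPM 0 were below, against 20.2% of all genes, and in FPKM Slc27a4, Acsl4 and Cavin1 were below, against 29.6%. The median log2 fold change was 1.14. Fabp3, the fatty acid binding protein of muscle and heart, stood at 5.57, 2.30, 147 and 432 FPKM in PBS 1, PBS 2, ATO 1 and ATO 2, a log2 fold change of 6.55 (SE 1.03). Acsl1, which links fatty acids to coenzyme A, stood at 2.66, 3.57, 23.4 and 77.3 FPKM, a log2 fold change of 4.37 (SE 0.90). Fabp4, the fatty acid binding protein of fat cells and a marker listed above, had a log2 fold change of 4.0 (SE 1.42). None of these passed, with edgeR adjusted p = 0.570 for each. Cavin1 and Cav1, which shape the caveolae of the cell surface, had log2 fold changes of -0.94 (SE 0.72) and -0.42 (SE 1.09).

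**Figure D4:**
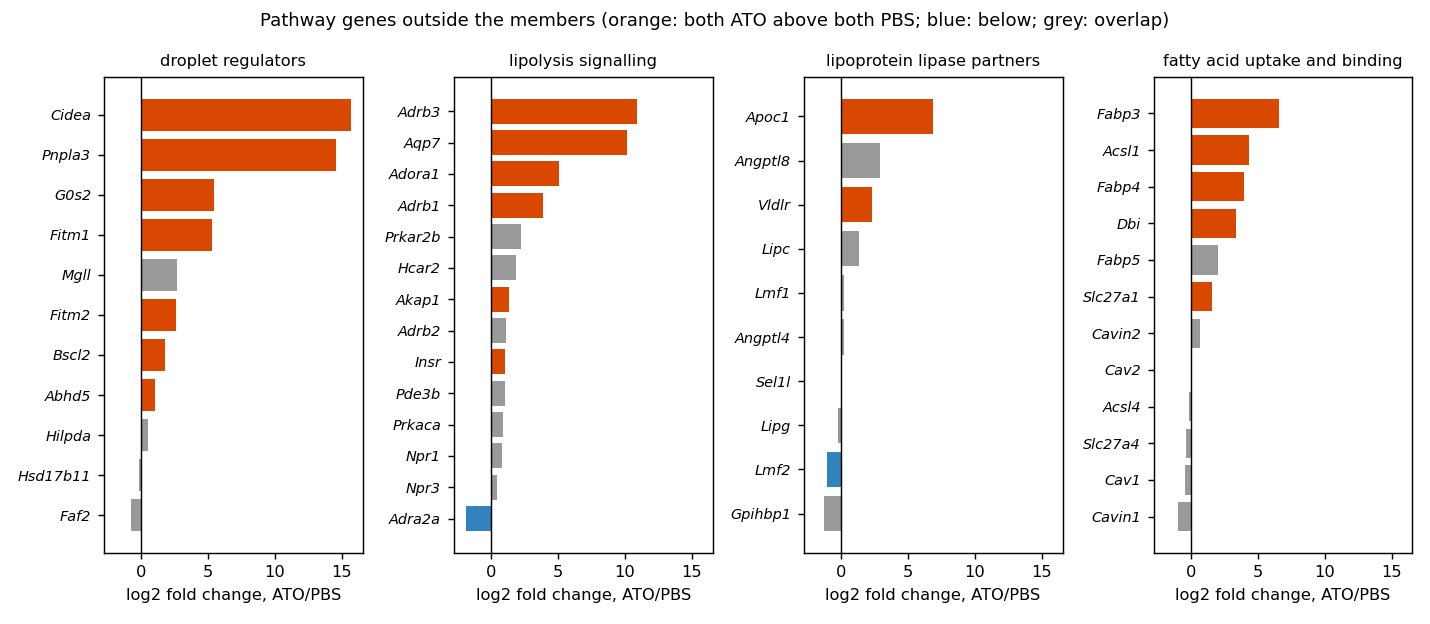
Fitted log2 fold change of ATO over PBS (x axis) for 47 tested pathway genes, 1 panel per list, n = 2 sarcomas per group. Orange bars, with both ATO sarcomas above both PBS sarcomas in CPM, number 20 and blue bars, with both below, number 2, and the longest bars, Cidea and Pnpla3, rest on 0 PBS counts, so their length depends on the fit.

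Across the 4 sarcomas the genes nearest to Plin1 in centred log2(CPM + 1) were Pck1 at a Euclidean distance of 0.314, Ces1d at 0.582, Cidec at 0.726, Cox8b at 0.880 and Ighg2c at 1.03. Pck1, cytosolic phosphoenolpyruvate carboxykinase, had 0, 1, 445 and 9813 counts in PBS 1, PBS 2, ATO 1 and ATO 2, the same counts as Plin1 in the first 3. Ighg2c is an immunoglobulin constant gene, with 0, 20, 331 and 6630 counts. A match over 4 sarcomas is a description and does not tie genes together. For Plin4, chosen as a second reference after the values were seen, the nearest were Ucp3 at 0.761, Mylk4 at 0.769, Ppp1r3c at 0.935, Pdk4 at 1.14 and Gm42047 at 1.16. All 5 were higher in ATO 1 than in ATO 2, an order that the choice by nearness to Plin4 favours.

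Plin4, Plin5 and Plin3 lie on chromosome 17 within 220653 bases that hold 12 protein-coding genes with 1 on each side. Plin4 and Plin5 are 1797 bases apart on the same strand, and Plin3 lies 159879 bases beyond Plin5. Of the 9 other genes, Fem1a was above PBS in both ATO sarcomas, at 8.65, 5.87, 37.6 and 9.09 FPKM in PBS 1, PBS 2, ATO 1 and ATO 2, as was Arrdc5, with at most 5 counts in a sarcoma. Mydgf and Dpp9 were below in both. The other 5 overlapped in CPM, although in FPKM Sema6b and Tnfaip8l1 were also below. Of all genes tested, 19.7% were above in both and 20.2% below in CPM, and 12.8% and 29.6% in FPKM. Nothing is read from these orders among the 9. The next gene on either side of the Plin4 and Plin5 pair, Hdgfl2 and Lrg1, had log2 fold changes of -0.37 and 0.23, against 7.26 and 6.08 for the pair. Plin4 and Hdgfl2 overlap by 17 bases on opposite strands.

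**Figure D5:**
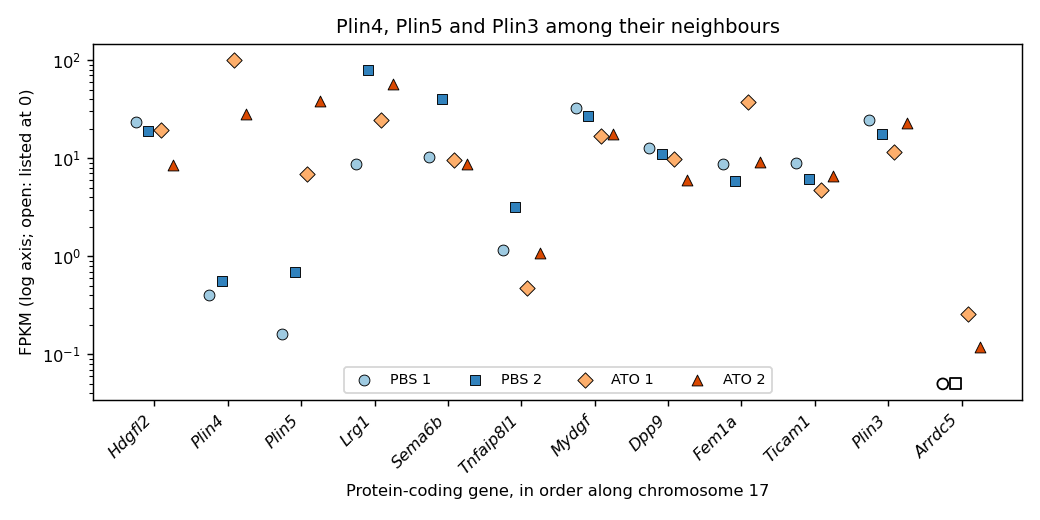
FPKM (y axis, log scale) of the 12 protein-coding genes from Hdgfl2 to Arrdc5 in their order along chromosome 17 (x axis), 1 symbol per sarcoma, with open symbols for values listed at 0. Plin4 and Plin5 stand apart with PBS levels under 1 FPKM and ATO levels of 6.92 to 100.04, while Plin3 overlaps between groups.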

How the data were processed

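RNA-seq counts of 4 sarcomas were analysed, 2 labelled ATO and 2 labelled PBS. The 10 genes and the lists were chosen with earlier results of these data known. Reads were processed with FastQC 0.10.1, cutadapt 1.9.1 and HISAT2 2.0.1, as named in the submitters' processing notes, and counted by HTSeq. The authors deposited raw counts per gene, and also FPKM, which equalled the count divided by the exonic length and the total count to within rounding in every gene. Whether counting used strand, or how multiply aligned reads were handled, is not given in the sources used here. The study names GRCm38, but only 2.83% of shared genes have the GENCODE M21 position in the table, so positions were taken from M21 by gene identifier.

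The test was edgeR 4.0.16 under R 4.3.3 (quasi-likelihood F-test after filterByExpr and TMM, Benjamini-Hochberg threshold 0.05) over 17188 genes, with a common biological coefficient of variation of 62.5%. The fit was tested on simulated data with far less spread between samples than these sarcomas have. That test therefore cannot show how many changed genes the fit would find here. Each SE of a log2 fold change was derived from the F statistic of the fit, which shares information on spread across genes. It is not the spread observed between the sarcomas for that gene. Ratios carry exact Clopper-Pearson intervals (95%). DESeq2 1.42.0, other scalings, no filter, a replicate block and each sarcoma left out were alternatives. The sarcoma left out in the count of genes above PBS and the likeness to Plin4 were added after seeing the data. The labels do not say how the sarcomas relate beyond their numbers, so p-values measure only the spread between these samples. The 10 genes were named as a set, and of each pathway list the 3 tested genes with the highest and the 2 with the lowest fitted log2 fold change, with any past the threshold, and 1 pathway gene, kept in the counts of its list, is not reported here. Genes like Plin1 were the 5 nearest in log2(CPM + 1), and neighbours were all protein-coding genes between the chromosome 17 perilipins and 1 on each side. Marker lists for cardiac muscle, epithelial and mammary cells and hepatocytes summed to at most 16.6 FPKM in a sarcoma.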

Additional observations from a re-analysis of the deposited data

How the results depend on the processing

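Genes called at the threshold numbered 0 in edgeR with TMM, with DESeq2 size factors, with library size alone, without mitochondrial genes and with each sarcoma left out, 754 in DESeq2 (4.13% of 18277 genes) and 541 with no filter (1.75% of 30859), each over more genes than the 17188 tested in edgeR with TMM. Of the pathway genes, DESeq2 called 12 and the test with no filter 11, and the cause was not tested. The replicate block gave 0 genes, with 1165 at an unadjusted p under 0.05, and a median log2 fold change of the 10 genes of 4.53. The sarcomas share only a number, with a correlation of 0.0001 between the differences of replicate 1 and 2. That median lay between 3.42 and 5.46 when 1 sarcoma was dropped. Plin3 turned sign with library size alone (-0.29) and with the replicate block (-0.081), and lay between -0.74 and 0.52 when 1 sarcoma was dropped. Without ATO 2 the log2 fold changes of Plin1 and Cidec were 9.58 and 9.56. Scaling by library size alone moved the median of all genes from -0.016 to -0.28. The other 58 fold changes under other settings and 36 with a sarcoma left out kept their direction and moved by less than 1 SD of the replicates. With 2 sarcomas a group, that SD holds the same gap that leaving 1 out exposes, so the 36 say little about stability. Plin2, for example, is among them although it fell from 2.10 to 0.30 without ATO 2. The ratio of ATO 2 to ATO 1 moved beyond its counting interval for all 10 genes in the deposited FPKM, which lack TMM factors, and turned for none. Low PBS counts limit Plin1, Plin5 and Cidec, and 2 sarcomas a group limit every contrast.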

Other observations

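Fitm1, which helps fat leave the membrane for the droplet in muscle, was the only tested droplet regulator with a higher TMM-scaled CPM in ATO 1 than in ATO 2, and stood at 0.06, 0.46, 14.9 and 3.51 FPKM in PBS 1, PBS 2, ATO 1 and ATO 2. It was picked out after its values were seen. Of the brown fat genes, Cidea stood at 0.0306 of the Adipoq FPKM in ATO 1 and 2.87 in ATO 2, and Ucp1 at 0.000771 and 7.79. Elovl3, a fatty acid elongase of brown fat, had 0 counts in both PBS sarcomas, 11 in ATO 1 and 1657 in ATO 2. Cox7a1, a subunit of cytochrome c oxidase in muscle and brown fat, stood at 1.82, 1.04, 12.4 and 250 FPKM in PBS 1, PBS 2, ATO 1 and ATO 2. Dio2, the remaining gene of that list, was highest in PBS 1, at 32.7 FPKM.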
